A study of Homo sapiens with 3 samples.

Results

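The 44 collagen genes analysed here are the family members COL1A1 to COL28A1, chosen by gene symbol and not by any measured value, though with earlier results of these data known. All 44 were found among the 20163 protein-coding genes of the annotation, GENCODE release 44 on GRCh37 (hg19). They fall into 11 fibrillar genes, 9 basement membrane genes and 24 genes of other classes. Chromatin immunoprecipitation sequencing (ChIP-seq) had been carried out in wild-type PANC-1, an established human cell line from a pancreatic ductal carcinoma, with no treatment listed. The series holds 3 libraries, 1 with an antibody against PHF13, 1 with an antibody against EZH2 and 1 of input chromatin, and the 2 peak lists hold 19039 PHF13 and 21639 EZH2 peaks. A member's region was its gene body plus 5 kb around the start of any of its annotated transcripts. These regions covered 6.90 Mb in all and held 50 PHF13 and 91 EZH2 peaks.

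Collagens are triple-helical proteins of the extracellular matrix. Fibrillar types build the cable-like fibrils of connective tissue, type IV forms the sheet-like network under epithelia, and other types coat fibrils, span the cell membrane or form finer networks. EZH2 is the enzyme of Polycomb repressive complex 2 (PRC2), which methylates histone H3 at lysine 27 and is known for occupying CpG-rich starts of developmental genes that are silent in a given tissue. PHF13 is a PHD-finger protein that binds histone H3 methylated at lysine 4, a mark of active or poised starts. In a pancreatic tumour most fibrillar collagen is known to come from fibroblasts, while epithelial cells add to the basement membrane.

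With 1 library per antibody there was no replicate check. Each count below is a description of these 2 lists, set beside the same count over all protein-coding genes, and no p-value is given. A peak's strength is given as −log10 q and fold enrichment over the background as the peak caller reported them, with the number of fragments stacked at its summit as solved from those values. The member peaks had a median of 21 fragments at the summit for PHF13 (13 to 88) and 27 for EZH2 (15 to 125). The lists hold no total read numbers, so a gene with no peak is a gene where none was detected at this depth.

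EZH2 peaks lay close to the starts of collagen genes more often than PHF13 peaks did. An EZH2 peak lay within 5 kb of a transcript start of 26 of 44 members (59.1%, 95% Wilson interval 44.4 to 72.3, counting error only), where 23.6% of all protein-coding genes had one. A PHF13 peak lay within 5 kb of a start of 14 members (31.8%, 20.0 to 46.6), against 21.0% of all protein-coding genes. These intervals treat the members as independent draws, although 3 EZH2 peaks counted for 2 members each. They measure no spread between libraries and are not a test against the background. Both peaks were present for 9 members (20.5%) against 5.33%. Over the whole region, gene body included, 32 members had an EZH2 peak (72.7%, against 30.0%), 24 had a PHF13 peak (54.5%, against 31.2%) and 20 had both (45.5%, against 12.6%). Collagen genes are long, with a median of 145 kb against 27.2 kb for all protein-coding genes, and all of these shares are higher in longer genes. Among the 26 members over 100 kb, 18 had an EZH2 peak near a start (69.2%, against 38.9% of protein-coding genes of that length), 9 had a PHF13 peak there (34.6%, against 30.1%) and 7 had both (26.9%, against 11.9%). Over the whole region of these long members, 21 had an EZH2 peak in the region (80.8%, against 56.4%), 18 had a PHF13 peak (69.2%, against 61.8%) and 15 had both (57.7%, against 38.2%). At matched length the PHF13 shares were thus close to the background.

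**Figure D1:**
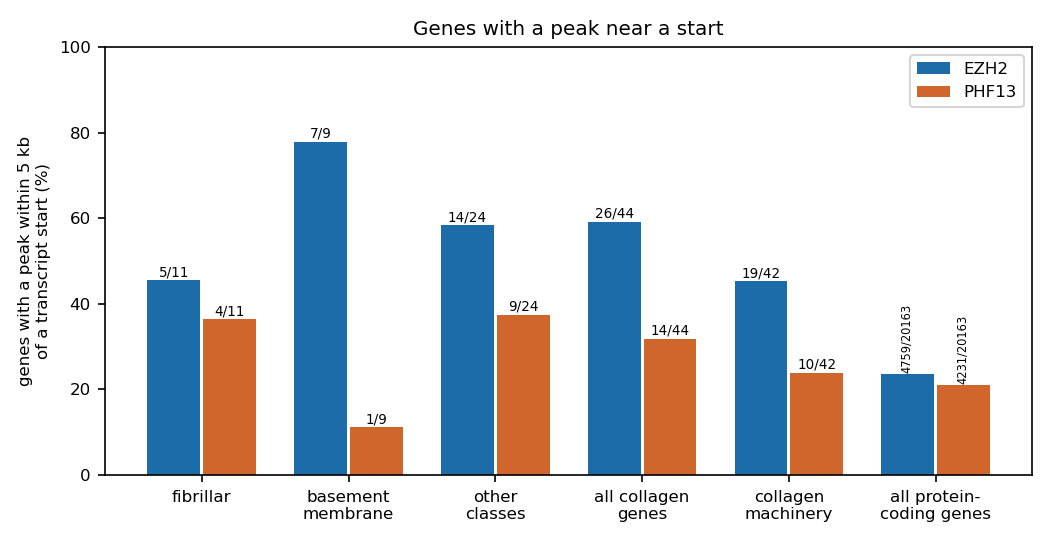
Share of genes (vertical axis, percent) with an EZH2 peak (blue) or a PHF13 peak (orange) within 5 kb of any annotated start, for each collagen class, all 44 collagen genes, 42 genes of collagen machinery and all protein-coding genes, with the counts over the bars. The EZH2 bar is higher than the PHF13 bar in every set shown, by 9.09 points in the fibrillar class (5 against 4 of 11) and 66.7 points in the basement membrane class (7 against 1 of 9).

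EZH2 peaks covered the canonical starts of some members. The start of the canonical transcript lay under an EZH2 peak in 17 of 44 members (38.6%, against 6.90% of all protein-coding genes) and under a PHF13 peak in 0 of 44 (against 2.48%). For PHF13 this is near the background. Its peaks in member regions were also narrow, with a median width of 178.5 bp, so that few would cover a given base. The 17 members were COL1A1, COL2A1, COL5A3, COL24A1, COL4A1, COL4A2, COL4A3, COL4A4, COL15A1, COL6A2, COL8A1, COL8A2, COL9A3, COL12A1, COL19A1, COL23A1 and COL26A1. They were covered by 15 peaks, since COL4A1 and COL4A2 share 1 and COL4A3 and COL4A4 share 1. These peaks had a median width of 1440 bp (398 to 2572), a median −log10 q of 16.8 (4.09 to 30.5) and a median CpG observed/expected ratio of 0.792 in the 500 bp at the summit. In 11 of 15 cases the peak was wider than 1 kb. The EZH2 peaks over canonical starts of all protein-coding genes were alike in these measures, with a median width of 1281 bp, a median −log10 q of 14.6 and a median CpG ratio of 0.825.

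Of the 26 members with EZH2 near a start, 17 had CpG-rich promoters. Among all protein-coding genes with EZH2 near a start it was 3326 of 4759, a similar share. Promoters were split at a CpG observed/expected ratio of 0.6 over 1000 bp centred on the canonical transcript start, which put 22 members on each side. Of the 22 CpG-rich members, 17 carried EZH2 within 5 kb of a start (77.3%, against 25.1% of protein-coding genes with such promoters) and 5 had a PHF13 peak (22.7%, against 24.9%). Of the 22 CpG-poor members, 9 had an EZH2 peak (40.9%, against 20.9%) and 9 had a PHF13 peak (40.9%, against 13.5%). The PHF13 share of CpG-rich members was thus near that of other genes of this kind. The 5 members with a PHF13 but no EZH2 peak within 5 kb (11.4%, against 15.7% of all protein-coding genes) all had CpG-poor promoters, with ratios from 0.0792 (COL28A1) to 0.465 (COL11A2). Among all protein-coding genes with that pattern, 615 of 3156 had CpG-poor promoters. The ratio is that of the canonical start, and the counted PHF13 peaks were not there. Their summits lay 4.90 kb (COL10A1) to 117 kb (COL5A2) from it, near other annotated starts.

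Many members have several annotated starts, with a median of 7.5 against 5 for all protein-coding genes, and most PHF13 peaks counted near a start were near one inside the gene. When the 5′ end of the gene alone was used, 4 members had a PHF13 peak within 5 kb (9.09%, against 14.6%) and 23 had an EZH2 peak (52.3%, against 18.6%). With peaks of −log10 q of at least 5 near any start, 5 members had a PHF13 peak (11.4%, against 6.62%) and 20 had an EZH2 peak (45.5%, against 14.3%). The EZH2 share of members was above the background under both settings, while the PHF13 share was below it with the gene's 5′ end alone and above it with strong peaks.

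**Figure D2:**
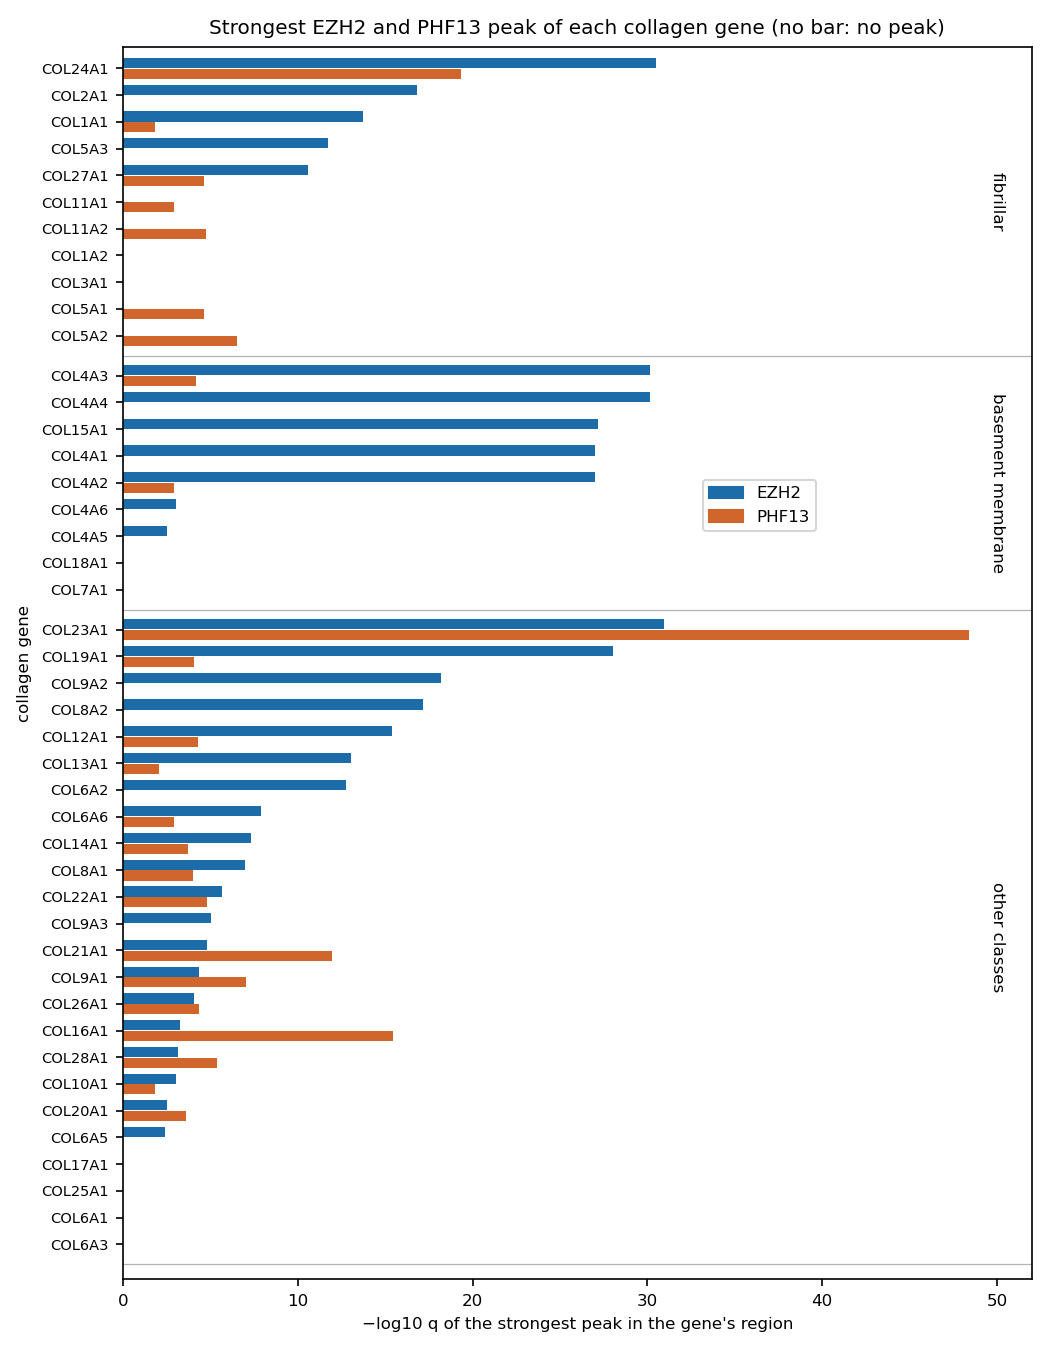
Strength of the strongest EZH2 (blue) and PHF13 (orange) peak in the region of each collagen gene, as −log10 q (horizontal axis), with genes grouped by class and ordered by the EZH2 value. EZH2 values of about 27 to 31 recur in COL24A1, COL4A1 to COL4A4, COL15A1, COL19A1 and COL23A1, while a PHF13 value above 10 is seen in COL23A1, COL24A1, COL16A1 and COL21A1.

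The 11 fibrillar genes showed all 4 combinations of the lists. Within 5 kb of a start, 5 had an EZH2 peak (COL1A1, COL2A1, COL5A3, COL24A1 and COL27A1), 4 had a PHF13 peak (COL1A1, COL5A2, COL11A2 and COL27A1) and 2 had both. These shares were 45.5%, 36.4% and 18.2%, against 23.6%, 21.0% and 5.33% of all protein-coding genes. COL1A1 encodes the alpha 1 chain of type I collagen, the main protein of bone and tendon fibrils. Its EZH2 peak (chr17:48278312-48279649, −log10 q 13.7, fold 3.93, 54 fragments) covered the canonical start, and its PHF13 peak was weak (−log10 q 1.86, fold 2.55, 20 fragments) and lay in an intron 10.4 kb into the gene, 178 bp from the start of a shorter transcript. Its partner COL1A2, which encodes the alpha 2 chain of the same trimer, had no peak in its region in either list, and neither did COL3A1, the type III chain of elastic tissues. The nearest EZH2 peak was 369 kb from a start of COL1A2 and 110 kb from one of COL3A1. The chains of type I collagen were therefore unlike each other in the EZH2 list.

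COL2A1, which encodes the main collagen of cartilage, had an EZH2 peak of 2302 bp over its start (−log10 q 16.8, fold 2.79, 110 fragments) and a second of −log10 q 2.71 beside it. COL24A1, a fibrillar gene of developing bone and eye, had the widest EZH2 peak of all members. It spanned 2572 bp over the start (chr1:86620449-86623020, −log10 q 30.5, fold 3.76, 125 fragments) and was followed by 9 weaker EZH2 peaks inside the gene, of −log10 q 2.55 to 5.77. COL24A1 also had 8 PHF13 peaks, all of them inside the gene and none nearer than 10.8 kb to a start. The strongest of these lay 306 kb from the canonical start, with −log10 q 19.3, fold 5.21 and 55 fragments. The nearest PHF13 and EZH2 peaks of this gene were 1649 bp apart.

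The type V and XI chains set the width of fibrils and assemble with the major types. Here COL5A1, COL5A2, COL11A1 and COL11A2 had PHF13 peaks and no EZH2 peak anywhere in their regions, and they were the 4 members of the family with that pattern. That is 9.09% of members, below the 18.6% of all protein-coding genes with it. The strongest PHF13 peaks of these 4 genes had −log10 q of 4.67, 6.54, 2.95 and 4.77. All 4 are intronic, and the COL11A1 peak lies in repeated sequence whose median 24-mer occurs 9382 times in the genome. The COL5A2 peak within 5 kb of a start is also in repeated sequence (186 copies), while its stronger peak (chr2:190014820-190014994, fold 4.15, 26 fragments) is single-copy and lies 29.6 kb after the canonical start. COL5A3, the remaining type V chain, had the opposite pattern, with 3 EZH2 peaks and no PHF13 peak. Its strongest EZH2 peak (−log10 q 11.7, fold 3.53, 54 fragments) covered the start and ended 2444 bp from a start of the neighbouring gene RDH8.

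COL27A1, a fibrillar gene of cartilage, was 1 of 3 members in which a PHF13 and an EZH2 peak overlapped, and the only one of these where the overlap was upstream of the gene. The PHF13 peak (chr9:116916269-116916472, −log10 q 4.67, fold 4.01, 20 fragments) lay wholly inside the EZH2 peak (chr9:116916073-116917536, −log10 q 10.6, fold 3.87, 43 fragments), with summits 97 bp apart and the PHF13 summit 1412 bp before the canonical start. The 204 shared bases are shown because they differ in composition from nearly all other PHF13 peaks of the family. They hold 27 CpG dinucleotides, in capitals, and the 500 bp at this summit had a CpG ratio of 0.906 against a median of 0.166 for the 50 PHF13 peaks (plus strand, GRCh37).
COL27A1 shared peak, chr9:116916269-116916472: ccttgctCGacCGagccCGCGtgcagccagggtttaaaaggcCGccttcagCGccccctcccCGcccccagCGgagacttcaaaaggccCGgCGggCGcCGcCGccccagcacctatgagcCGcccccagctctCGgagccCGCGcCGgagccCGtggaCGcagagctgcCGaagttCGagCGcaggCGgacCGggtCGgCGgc
A second EZH2 peak of COL27A1, of −log10 q 3.06, lay 81.0 kb inside the gene.

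The basement membrane class had EZH2 peaks near starts in 7 of 9 members (77.8%, against 23.6% of all protein-coding genes) and a PHF13 peak in 1 of 9 (11.1%, against 21.0%). All 6 type IV chains were among the 7, together with COL15A1, a proteoglycan collagen of the outer basement membrane. COL7A1, which forms the anchoring fibrils of skin, and COL18A1, from which endostatin is cut, had no peak of either list in their regions. The type IV genes sit in head-to-head pairs, so 3 EZH2 peaks counted for 6 genes. The peak between COL4A1 and COL4A2, the chains of the ubiquitous type IV network, spanned 1978 bp (chr13:110958776-110960753, −log10 q 27.0, fold 3.95, 104 fragments). The peak between COL4A3 and COL4A4, chains of the kidney glomerular network, spanned 1484 bp (chr2:228028329-228029812, −log10 q 30.1, fold 4.77, 93 fragments). The peak counted for both COL4A5 and COL4A6 lay inside COL4A6, 1581 bp from the nearest start of COL4A5. It was of another order, with a width of 162 bp, −log10 q 2.55, fold 2.89 and 19 fragments. Its summit lay in an intron, 299 bp after the canonical start of COL4A6. The promoters of these last genes are also less CpG-rich, with ratios of 0.475 and 0.406 against 0.698 to 0.867 for COL4A1 to COL4A4. The 170 bases between the COL4A4 and COL4A3 gene records, all of them under the EZH2 peak, are shown as the shared start region with CpG dinucleotides (12) in capitals (plus strand, the strand of COL4A3).
COL4A4-COL4A3 interval, chr2:228029170-228029339: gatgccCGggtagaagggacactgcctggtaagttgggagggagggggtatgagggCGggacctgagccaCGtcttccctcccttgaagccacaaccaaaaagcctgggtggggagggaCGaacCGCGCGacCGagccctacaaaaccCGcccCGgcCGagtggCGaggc

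COL15A1 had an EZH2 peak of 1429 bp over its start (chr9:101705764-101707192, −log10 q 27.2, fold 4.44, 91 fragments) and a weaker one beside it (−log10 q 5.43). The PHF13 peaks of the class were few and weak. COL4A3 had 1 at an internal start 145 kb into the gene (−log10 q 4.16, fold 3.66, 21 fragments) and 1 in an intron (−log10 q 2.95), and COL4A2 had 1 in an intron (−log10 q 2.95). That is 3 PHF13 peaks in 1.51 Mb, or 1.99 per Mb, against 10.1 per Mb for the fibrillar class, 8.17 for the other classes and 6.85 for all protein-coding regions. The EZH2 densities of the classes were closer to each other, at 11.3, 12.2 and 14.3 per Mb for basement membrane, fibrillar and other genes, against 7.78 for all protein-coding regions. The fibrillar densities lean on 1 long gene. COL24A1 alone held 8 of the 15 PHF13 and 10 of the 18 EZH2 peaks of that class. COL4A1, COL4A2, COL4A5 and COL4A6 are on chromosomes 13 and X, where the whole PHF13 list is sparse (1.61 and 3.31 peaks per Mb, against 8.55 on chromosome 1). Without these 4 genes the basement membrane class had 2 PHF13 peaks in 0.599 Mb, or 3.34 per Mb.

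**Figure D3:**
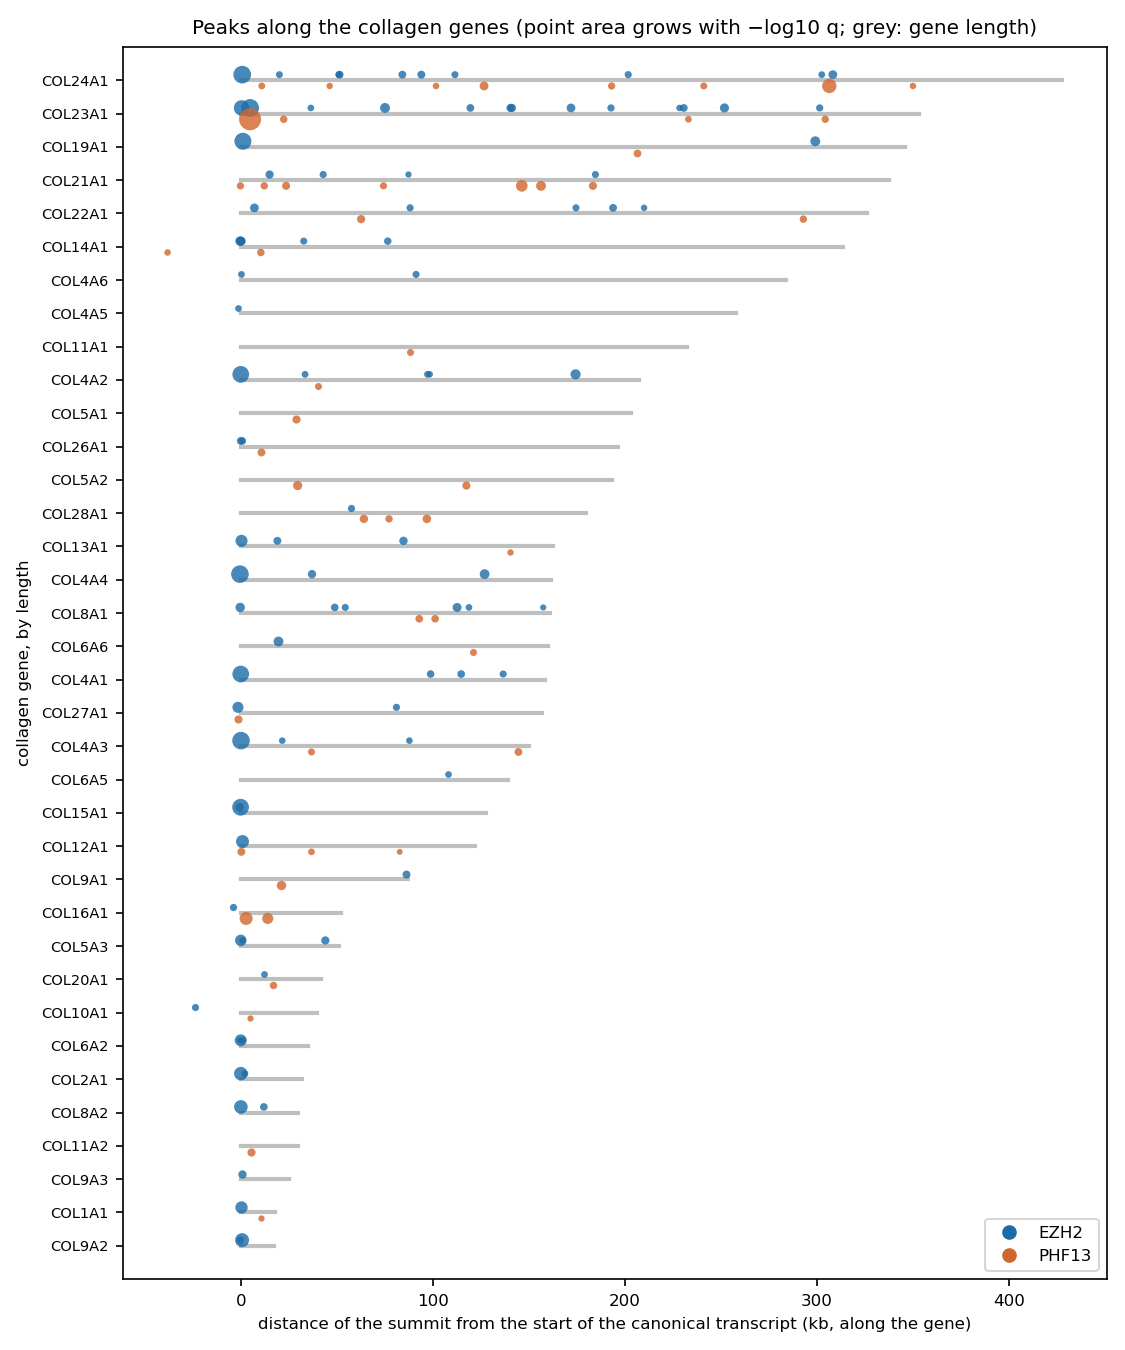
Position of every peak in the 36 collagen genes with at least 1 peak, as the distance of the summit from the start of the canonical transcript (horizontal axis, kb, counted along the gene), with genes ordered by length (grey lines), EZH2 in blue, PHF13 in orange and point area growing with −log10 q. The large EZH2 points gather at 0, whereas PHF13 points are spread along the genes; the largest PHF13 point is that of COL23A1, 4.79 kb from the start.

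Among the 24 other genes, 14 carried EZH2 within 5 kb of a start (58.3%, against 23.6% of all protein-coding genes). PHF13 was there in 9 (37.5%, against 21.0%) and both in 6 (25%, against 5.33%). The 10 fibril-associated genes (FACIT), whose products sit on the surface of fibrils, accounted for 8 of the 14 and 5 of the 9. All 10 had an EZH2 peak somewhere in the region, against 30.0% of all protein-coding genes and 56.4% of those over 100 kb. Several FACIT genes are that long, and some of these peaks are weak. The 5 type VI genes, which build beaded filaments, had an EZH2 peak near a start in COL6A2 alone and no PHF13 peak near a start. COL6A2 had 3 adjoining EZH2 peaks, of which the strongest (−log10 q 12.8, fold 4.29, 45 fragments, 921 bp) covered the start. COL6A1, its neighbour on the chromosome and a chain of the same trimer, had no peak in its region, and the nearest EZH2 peak was 8417 bp from one of its starts. COL6A3 had no peak, COL6A5 had 1 intronic EZH2 peak of −log10 q 2.43, and COL6A6 had 1 intronic peak of each list, 102 kb apart.

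COL12A1, a FACIT gene of tendon and other dense tissue, was the member in which PHF13 and EZH2 peaks overlapped nearest to the canonical start. The EZH2 peak (chr6:75914470-75916197, −log10 q 15.4, fold 3.81, 63 fragments) was 1728 bp wide and held the whole PHF13 peak of 327 bp (chr6:75915287-75915613, −log10 q 4.32, fold 3.84, 20 fragments). The PHF13 summit lay 243 bp after the canonical start and 145 bp from the EZH2 summit, with a CpG ratio of 0.746. COL12A1 and COL27A1 were the 2 members with a PHF13 peak of CpG ratio of at least 0.6, and in both of them that peak lay under an EZH2 peak. Further PHF13 peaks of COL12A1 had −log10 q of 2.48 and 1.39.

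COL16A1, a FACIT gene of skin and gut, had strong PHF13 peaks and a weak EZH2 peak. Its PHF13 peaks lay in introns 2.74 kb and 14.0 kb after the canonical start (−log10 q 15.5 and 10.7, fold 5.13 and 4.70, 45 and 35 fragments). The EZH2 peak (−log10 q 3.28, fold 3.34, 18 fragments) lay 4165 bp upstream of the start in repeated sequence of 818 copies. COL21A1, a FACIT gene of vessel walls, had 7 PHF13 peaks, the most after COL24A1, and 4 EZH2 peaks. Its strongest PHF13 peak was intronic (−log10 q 12.0, fold 5.40, 33 fragments, 146 kb from the canonical start and 9482 bp from the nearest annotated start), and those within 5 kb of a start had −log10 q of 7.96, 4.67 and 3.35. Its EZH2 peaks reached a −log10 q of 4.83, and the 1 near a start had 3.03. In both genes the PHF13 signal was the stronger by its rank within its own list.

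COL19A1, a FACIT gene of basement membrane zones, had the opposite order. Its EZH2 peak of 1922 bp over the start (chr6:70576237-70578158, −log10 q 28.1, fold 4.65, 89 fragments) also covered a start of the neighbouring gene LMBRD1, and its PHF13 peak was 1 intronic peak of −log10 q 4.04. COL9A2 and COL9A3, chains of cartilage type IX collagen, had EZH2 peaks over an annotated start (−log10 q 18.2 and 5.03), which in COL9A3 included the canonical one, and no PHF13 peak. COL9A1, the remaining chain of that trimer, had a PHF13 peak 528 bp from an internal start (chr6:70992063-70992215, −log10 q 7.06, fold 4.49, 25 fragments) and an intronic EZH2 peak of −log10 q 4.36 that was 18.9 kb from any start. The 3 chains of type IX collagen were therefore not alike. COL20A1, another FACIT gene, had 1 weak peak of each list in coding exons, farther than 5 kb from a start.

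The FACIT genes COL14A1 and COL22A1 are both on chromosome 8. COL14A1, known from tendon and skin, had 3 EZH2 peaks side by side around the canonical start (−log10 q 6.40, 7.35 and 4.17) and 2 PHF13 peaks at 10.3 kb or more from a start. COL22A1, known from the junction of muscle and tendon, had an intronic EZH2 peak of −log10 q 5.66 (fold 3.92, 23 fragments) 6960 bp from a start, and weaker ones of 4.16 and 3.06 within 5 kb of internal starts. Its PHF13 peaks had −log10 q of 4.83 (fold 3.97, 21 fragments, 23.1 kb from a start) and 3.48 (18 fragments, 509 bp from an internal start).

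Of the 4 transmembrane genes 2 had peaks of both lists and 2 had none. COL17A1, the collagen of hemidesmosomes in epithelial cells, and COL25A1, a neuronal member, had no peak in their regions, although COL25A1 is the longest member at 494 kb and has a CpG-rich promoter (ratio 0.882). Its nearest EZH2 peak was 22.4 kb from a start. COL13A1, a collagen of muscle and nerve junctions, had an EZH2 peak of 1520 bp that covered an annotated start but not the canonical one (−log10 q 13.1, fold 3.66, 57 fragments, summit 320 bp after the canonical start), EZH2 peaks of −log10 q 4.39 and 5.15 near internal starts and a PHF13 peak of −log10 q 2.06 (fold 2.85, 17 fragments) 1942 bp from an internal start.

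COL23A1 had the strongest peak of the family in both lists, and it was the same place. In an intron, 4.79 kb after the canonical start, a PHF13 peak (chr5:178012422-178012733, −log10 q 48.4, fold 8.46, 88 fragments, rank 315 of 19039) and an EZH2 peak (chr5:178012467-178012724, −log10 q 31.0, fold 4.38, 105 fragments, rank 742 of 21639) shared 258 bp, with summits 8 bp apart. The sequence is a tandem repeat. Over the 312 bp of the PHF13 peak, 76.5% of bases were identical to the base 31 positions later, and the median 24-mer at the summit occurs 4 times in the genome. A read from such a repeat can be placed at more than 1 position, and its part in these values was not tested. The 100 bases at the PHF13 summit are shown for the repeat, with CpG dinucleotides (3) in capitals (minus strand, the strand of the gene).
COL23A1 shared summit, chr5:178012558-178012657: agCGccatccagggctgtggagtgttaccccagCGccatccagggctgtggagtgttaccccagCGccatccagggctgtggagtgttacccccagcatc
COL23A1 also had a single-copy EZH2 peak of 1628 bp over its start (−log10 q 22.9, fold 3.87, 91 fragments) with a CpG ratio of 0.936, and 11 further EZH2 peaks inside the gene with −log10 q up to 8.06. Its other 3 PHF13 peaks had −log10 q of 2.57 to 3.58. Without multi-copy peaks, COL24A1 led both lists.

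The short-chain network genes COL8A1 and COL8A2, of vessel wall and corneal membrane, both had an EZH2 peak over the start. That of COL8A2 had −log10 q 17.2 (fold 4.48, 57 fragments) and a CpG ratio of 0.875, and that of COL8A1 had −log10 q 6.98 (fold 3.14, 40 fragments) and a CpG ratio of 0.542, the lowest of the 15 peaks over canonical starts. COL8A1 also had 2 intronic PHF13 peaks (−log10 q 4.00 and 3.86), 24.3 kb or more from a start. COL10A1, the collagen of hypertrophic cartilage, had a PHF13 peak of −log10 q 1.86 in a coding exon and a weak EZH2 peak farther off, and both lie inside the overlapping gene NT5DC1. COL26A1, described from testis and ovary, had an EZH2 peak over its start (−log10 q 4.09) and an intronic PHF13 peak of −log10 q 4.36, 10.3 kb from a start. COL28A1, a collagen of peripheral nerve, had 3 intronic PHF13 peaks, the strongest of −log10 q 5.40 (fold 3.62, 27 fragments) 1482 bp from an internal start, and 1 EZH2 peak of −log10 q 3.14.

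Few peaks of the lists overlapped in collagen genes, as in other genes. Of the 50 PHF13 peaks in collagen regions 3 overlapped an EZH2 peak (6%, against 5.34% of the PHF13 peaks in all protein-coding regions and 11.7% of the whole PHF13 list), and of the 91 EZH2 peaks 3 overlapped a PHF13 peak (3.30%, against 4.64% and 10.3%). In the 20 members with both, the smallest gap between a PHF13 and an EZH2 peak had a median of 9.46 kb and reached 102 kb in COL6A6, and it was above 5 kb in 14 of 20. The smallest gap without overlap was 1035 bp, in COL21A1. Presence of both peaks in a collagen gene therefore mostly meant presence at separate positions.

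The positions of the peaks differed too. Of the 91 EZH2 summits 64 were in introns, 9 upstream, 8 in untranslated exons, 6 in noncoding exons and 4 in coding exons, and of the 50 PHF13 summits 44 were in introns. Within 1 kb of a start lay 29 EZH2 peaks, with a median −log10 q of 10.6, a median width of 921 bp and a median CpG ratio of 0.748. The 49 EZH2 peaks farther than 5 kb from a start had medians of 3.16, 203 bp and 0.230. The 10 PHF13 peaks within 1 kb of a start had a median −log10 q of 4.50 and a median CpG ratio of 0.221, and the 32 farther than 5 kb had 3.53 and 0.157. For EZH2 the strength, the width and the CpG content were thus higher at starts, and for PHF13 they differed less between the places. Peaks wider than 1 kb were 15 of 91 for EZH2 (16.5%, against 13.2% in all protein-coding regions) and 0 of 50 for PHF13 (against 0.127%), so both were near the background.

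**Figure D4:**
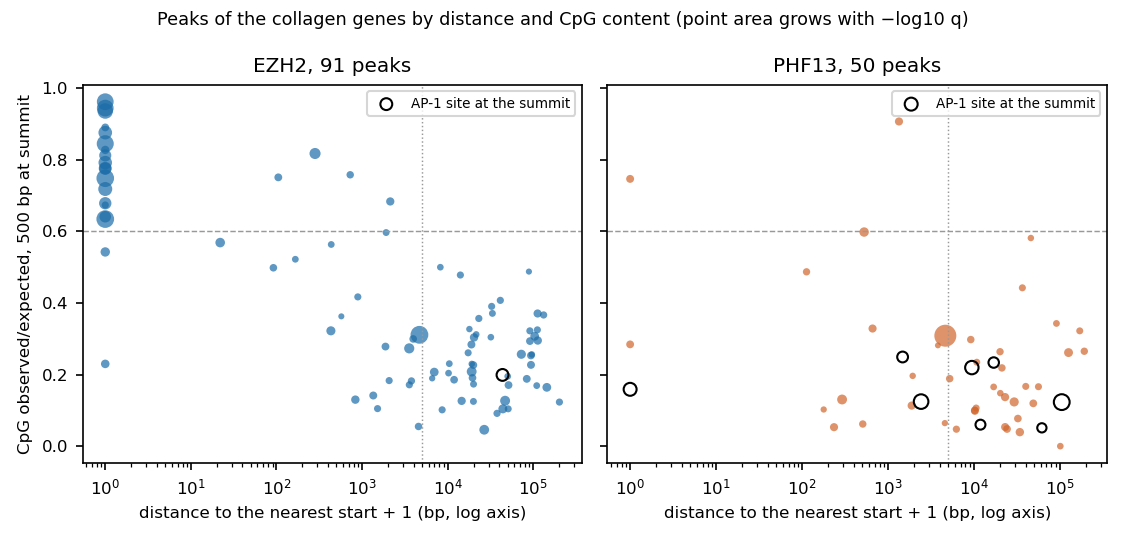
CpG observed/expected ratio in 500 bp at the summit (vertical axis) against the distance from the peak to the nearest start of the member (horizontal axis, bp plus 1 on a log axis, so that peaks over a start stand at 1), for 91 EZH2 peaks (left) and 50 PHF13 peaks (right), with point area growing with −log10 q, open circles for peaks with an AP-1 site, a dashed line at a ratio of 0.6 and a dotted line at 5 kb. CpG-rich EZH2 points stand at or near a start, while 48 of 50 PHF13 points lie below the dashed line at all distances.

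The sequence at the PHF13 summits was examined for the AP-1 site, the heptamer bound by FOS and JUN proteins, written TGACTCA or TGAGTCA (each is the other's reverse complement, so both strands are covered). In 200 bp at the summit, 8 of 50 PHF13 peaks in collagen regions held it (16%, against 12.3% in all protein-coding regions and 11.2% of the whole PHF13 list), and 4 of 100 windows of the same length at 1000 bp to each side did (4%). Of the 91 EZH2 peaks 1 held it (1.10%, against 1.89% and 2.31%), an intronic peak of COL19A1. The PHF13 share in collagen regions was near that of the whole list, so the site marks PHF13 peaks in collagen genes about as it does elsewhere. The 8 peaks lay in COL5A1, COL16A1, COL21A1, COL24A1 and COL28A1, were all single-copy and all intronic, and included 5 of the 11 PHF13 peaks with −log10 q of at least 5. The same share among strong PHF13 peaks of other genes was not computed, so 5 of 11 has no background beside it. Those 5 are shown with 30 bases on each side and the site in capitals (minus strand, the strand of each gene, GRCh37), since they include the strongest PHF13 peaks of COL24A1, COL16A1, COL21A1 and COL28A1.
COL24A1, −log10 q 19.3, chr1:86316076-86316142: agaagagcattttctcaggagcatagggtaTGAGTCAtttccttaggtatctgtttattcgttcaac
COL16A1, −log10 q 15.5, chr1:32166798-32166864: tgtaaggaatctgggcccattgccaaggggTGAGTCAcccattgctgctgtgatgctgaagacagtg
COL21A1, −log10 q 12.0, chr6:55966023-55966089: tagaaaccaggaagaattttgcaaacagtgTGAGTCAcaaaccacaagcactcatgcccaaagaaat
COL16A1, −log10 q 10.7, chr1:32155584-32155650: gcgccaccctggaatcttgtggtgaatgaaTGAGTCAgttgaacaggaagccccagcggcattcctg
COL28A1, −log10 q 5.40, chr7:7478678-7478744: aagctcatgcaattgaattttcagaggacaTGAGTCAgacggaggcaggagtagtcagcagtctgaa
All 5 carry the TGAGTCA form on the strand of their gene. A match of these letters is a description and not a measured binding site of AP-1.

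In all, 17 members had an EZH2 but no PHF13 peak within 5 kb of a start (38.6%, against 18.3% of all protein-coding genes). Both were there in 9 (20.5%, against 5.33%), PHF13 alone in 5 (11.4%, against 15.7%) and neither in 13 (29.5%, against 60.7%). The 9 with both were COL1A1, COL27A1, COL4A3, COL12A1, COL16A1, COL21A1, COL22A1, COL13A1 and COL23A1. The 13 with neither included 8 with no peak in the whole region, namely COL1A2, COL3A1, COL7A1, COL18A1, COL6A1, COL6A3, COL17A1 and COL25A1, and 5 with peaks deeper in the gene, namely COL5A1, COL11A1, COL6A5, COL6A6 and COL20A1. The limit of 5 kb did not cut through a dense group of members. The farthest counted members were COL10A1 and COL23A1 at 4601 and 4661 bp for PHF13 and COL16A1 at 3767 bp for EZH2, and the nearest uncounted ones were COL20A1 at 9214 bp for PHF13 and COL6A1 at 8417 bp for EZH2.

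The genes that fold, cut, crosslink and bind collagen were read in the same way from a list of 42. Of these, 19 carried EZH2 within 5 kb of a start (45.2%, against 23.6% of all protein-coding genes). PHF13 was there in 10 (23.8%, against 21.0%) and both in 3 (7.14%, against 5.33%). The shares for PHF13 and for both were thus near the background. The strongest EZH2 peaks were those of LOX, which crosslinks collagen (−log10 q 20.5), COLGALT2, which glycosylates it (19.8), and ADAMTS2, which removes the amino-terminal propeptide (19.5), each of them over a start. The strongest PHF13 peaks were those of SERPINH1, the collagen chaperone HSP47 (6.49), and of ITGA2 and ITGB1, the subunits of a collagen-binding integrin (6.47 and 5.96). The genes with both peaks were ADAMTS14, another propeptidase (EZH2 15.5, PHF13 1.89), PLOD2, a lysyl hydroxylase (5.67 and 5.21), and LOXL4, a relative of LOX (1.91 and 2.36). In none of these 3 genes did the strongest peaks overlap.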

How the data were processed

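Per the study's methods, the authors trimmed reads with Trim Galore 0.4.1, aligned them to hg19 with Bowtie 2 2.4.1, dropped PCR duplicates (Picard) and ran MACS2 2.2.7.1 with the input as control, on 1 library per antibody. The deposited fold enrichment is the ChIP pileup over the local background at the summit, p and q were deposited as −log10 values, and the deposited score is −log10 q times 10. The lists reach a −log10 q of 1.30, looser than the limit stated for PHF13, and the EZH2 list is of narrow peaks although broad peaks are described. They were used as deposited.

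Peaks were tied to starts and gene bodies of GENCODE release 44 on GRCh37, by any base. Fold and p were solved for whole fragments at the summit (relative error under 0.0001 for every peak). Copies are genome-wide counts of each 24-mer in 100 bp at the summit. Placement, solving and 24-mer counting were tested on simulated data. Python 3.11.15, numpy 2.4.6, pandas 2.3.3 and scipy 1.17.1 were used. Total depth is unknown from the lists. Full peak values are given for members with both peaks near a start, with overlapping peaks, or among the 8 strongest of either list. The members and lists were chosen with earlier results of these data known.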

Additional observations from a re-analysis of the deposited data

How the results depend on the processing

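The EZH2 counts over all members stayed within 1.5 times under every alternative run: peaks of −log10 q of at least 3 or 5, the summit alone, the gene's 5′ end alone, single-copy peaks and a limit of 1 kb. The PHF13 counts depended on peak strength and on which starts counted. With −log10 q of at least 5, 7 members had a PHF13 peak in the region (24 as deposited) and 2 had both (20). Near a start 5 had PHF13 (14) and 1 had both (9). At that strength the PHF13 share near a start was 0% in the fibrillar class (11 genes) and 0% in the basement membrane class (9 genes). Of all protein-coding genes 6.62% had such a peak, so in classes this small both shares were near the background. Also at that strength, 1 PHF13 peak overlapped an EZH2 peak and 5 held an AP-1 site. With the gene's 5′ end alone 4 members had PHF13 near a start and 4 had both. Within 1 kb of any start 8 had PHF13 and 3 had both. With −log10 q of at least 3 or 5, the EZH2 share near a start of the basement membrane class was 55.6% in place of 77.8%. That of the fibrillar class was 45.5% at both limits and as deposited. For the type IV chains alone, the EZH2 share as deposited was 100%. The PHF13 density of that class without chromosomes 13 and X, and the peaks over canonical starts, were computed after the data had been seen. The causes of these changes, beyond fewer peaks or starts entering, were not tested. No paired analysis was possible because each antibody has 1 library. Without replicates, weak peaks cannot be told from chance calls one by one.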
